A study of Mus musculus with 11 samples.

Results

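The nuclear genes for the subunits of respiratory complex I were followed in bulk RNA sequencing libraries from the inguinal white fat of mice, which lies under the skin. Members were the protein-coding genes whose symbol begins with Nduf followed by a, ab, b, c, s or v and a number, which leaves out the assembly factors named Ndufaf. The rule found 38 genes of 52282, and all 38 had enough reads to be tested. Of them, 36 encode complex I subunits. The other two share the name only: Ndufa4, now placed in cytochrome c oxidase (complex IV), and its relative Ndufa4l2.

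Complex I (NADH:ubiquinone oxidoreductase) is the entry point of the mitochondrial respiratory chain. Its hydrophilic arm oxidises NADH in the N module and passes electrons along iron-sulphur clusters to ubiquinone in the Q module, while its membrane arm pumps protons. The catalytic core is conserved from bacteria, most of the remaining subunits are accessory, and the mitochondrial genome encodes the core of the membrane arm. In adipocytes the complex takes part in fuel oxidation, and brown and beige fat hold many more mitochondria than white fat.

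The study deleted Raptor, the defining subunit of the growth-regulating kinase complex mTORC1, in adipocytes, and treated mice with rosiglitazone, an agonist of the adipogenic nuclear receptor PPARG. All mice were C57BL6/J, aged 16 weeks, and had eaten a high-fat diet for 8 weeks. KO mice carried floxed Raptor and a Cre recombinase driven by adiponectin, a gene of mature adipocytes, so other cells of the depot kept the gene, and WT mice carried floxed Raptor. There were 3 KO libraries with rosiglitazone at 30 mg per kg per day, 2 KO libraries on diet alone, 3 WT libraries with rosiglitazone and 3 WT libraries on diet alone.

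The titles of the 6 WT libraries contradict their treatment characteristic, each naming the other treatment. The characteristic is used here, since the names of the deposited tables follow it too, and every direction that involves WT below rests on that choice. With the titles, the sign of rosiglitazone in WT turns round (median log2 fold change of members −1.43) and that of KO against WT with rosiglitazone becomes positive (median 0.25). The labels number replicates without saying that each is a separate mouse, so p-values measure the spread between these libraries, which may be in part technical. Libraries held 13035346 to 40925952 estimated reads, of which 12800 to 95581 (0.0797% to 0.234%) fell on the members. Rptor, the deleted gene, had 88.3, 82.4 and 91.7 counts scaled to library size (CPM) in KO libraries with rosiglitazone, against 119, 126 and 110.5 CPM in WT libraries with rosiglitazone. On diet alone it had 56.5 and 69.6 CPM in KO libraries, against 92.0, 80.0 and 73.9 CPM in WT libraries. Every KO library lay below every WT library on the same treatment, but neither difference was called (adjusted p = 0.075 with rosiglitazone and 0.47 on diet alone, edgeR).

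The promoters of the members were read first, as a feature that did not enter the choice of genes. RefSeq promoter windows (GRCm38.p6, 250 bases before to 50 after the start) were read for 33 of the 38 genes. Ndufa2, Ndufa4l2, Ndufb9 and Ndufs1 are among the genes for which no window was read. The members lie on 15 chromosomes, with at most 5 on any one and 2 on the X chromosome. Their windows had a median GC content of 59.0% (45.3% to 70.7%), against 52.7% over all 32851 windows. Windows are printed for 4 members: the Q-module core genes Ndufs3 and Ndufs7, Ndufa11 of the proximal membrane arm, and Ndufb3 of the distal arm, which carry the expression results or the motif matches below. Each is written 5′ to 3′ on the strand of the gene, with exact motif matches in capitals. They are, in order, chr2:90904672-90904971 on the minus strand, chr10:80249199-80249498 on the plus strand, chr17:56717512-56717811 on the plus strand and chr1:58586147-58586446 on the plus strand.
Ndufs3: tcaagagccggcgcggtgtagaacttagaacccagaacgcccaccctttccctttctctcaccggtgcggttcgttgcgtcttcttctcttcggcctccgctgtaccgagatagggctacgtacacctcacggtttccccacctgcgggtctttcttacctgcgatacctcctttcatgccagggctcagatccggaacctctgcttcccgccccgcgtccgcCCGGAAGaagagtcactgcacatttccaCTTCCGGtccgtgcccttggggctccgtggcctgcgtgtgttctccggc
Ndufs7: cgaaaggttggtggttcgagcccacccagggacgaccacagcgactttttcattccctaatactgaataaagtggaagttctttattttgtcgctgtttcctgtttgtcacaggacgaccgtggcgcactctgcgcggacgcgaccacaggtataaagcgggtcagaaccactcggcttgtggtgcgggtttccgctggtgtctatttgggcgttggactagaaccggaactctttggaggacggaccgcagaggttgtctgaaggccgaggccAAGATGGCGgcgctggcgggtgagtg
Ndufa11: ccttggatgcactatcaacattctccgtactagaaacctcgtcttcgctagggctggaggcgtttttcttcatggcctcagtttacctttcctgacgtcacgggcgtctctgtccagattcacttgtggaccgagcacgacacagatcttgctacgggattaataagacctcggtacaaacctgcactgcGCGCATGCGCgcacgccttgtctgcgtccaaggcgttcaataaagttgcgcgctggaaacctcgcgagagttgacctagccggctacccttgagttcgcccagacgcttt
Ndufb3: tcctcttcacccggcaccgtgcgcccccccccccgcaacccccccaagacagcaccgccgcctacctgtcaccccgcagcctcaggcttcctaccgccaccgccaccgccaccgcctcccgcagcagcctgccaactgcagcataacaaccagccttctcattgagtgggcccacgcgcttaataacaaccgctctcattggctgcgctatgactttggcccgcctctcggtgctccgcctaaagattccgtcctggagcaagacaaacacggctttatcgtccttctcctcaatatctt

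The capitals in Ndufs3 mark CCGGAAG, the core of sites for ETS factors such as GABPA, once on each strand. The capitals in Ndufs7 mark AAGATGGCG, a YY1 site that lies just inside transcripts, and those in Ndufa11 mark the palindromic site of nuclear respiratory factor 1 (NRF1). Matches were exact and counted on both strands, and a match is a run of letters, not a shown binding site. The YY1 letters were in windows of 5 of 33 members, namely Ndufa9, Ndufc1, Ndufs4, Ndufs6 and Ndufs7, against 1.40% of all windows. All 5 lay between 23 and 44 bases into the transcript on the strand of the gene. The ETS letters were in 4 members (Ndufb6, Ndufb7, Ndufs3 and Ndufs8), against 8.86% of all windows. The NRF1 letters were in Ndufa11 alone, against 0.971% of all windows. No member window held TCAAGGTCA, the site of estrogen-related receptors (0.423% of all windows), or the direct repeat of AGGTCA with 1 base between that PPAR and RXR bind (0.0396% of all windows). Ndufb3 held none of the 5 motifs.

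Levels scaled by transcript length and library size (TPM) differed widely among the members. Over all 11 libraries the mean was 118 TPM for Ndufa4, 93.7 TPM for Ndufb8 and 89.5 TPM for Ndufb5, which were among the highest. For Ndufa4 the level was 35.4, 69.1 and 63.7 TPM in KO libraries with rosiglitazone and 126 and 48.6 TPM in KO libraries on diet alone. It was 209.5, 264 and 209.7 TPM in WT libraries with rosiglitazone, against 128, 93.7 and 51.1 TPM in WT libraries on diet alone. The order of the members was not fixed between groups: Ndufab1 ranked 2 of 38 in KO libraries on diet alone and 12 in WT libraries with rosiglitazone. At the low end stood Ndufb4 (8.73 TPM), Ndufa11 (4.61 TPM) and Ndufa4l2 (2.10 TPM). Ndufa4l2 held only 21 to 61 reads in a library, and Ndufb4 may share reads with Ndufb4c, annotated as a processed pseudogene, which took 95 to 1017 reads, so both are uncertain.

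**Figure D1:**
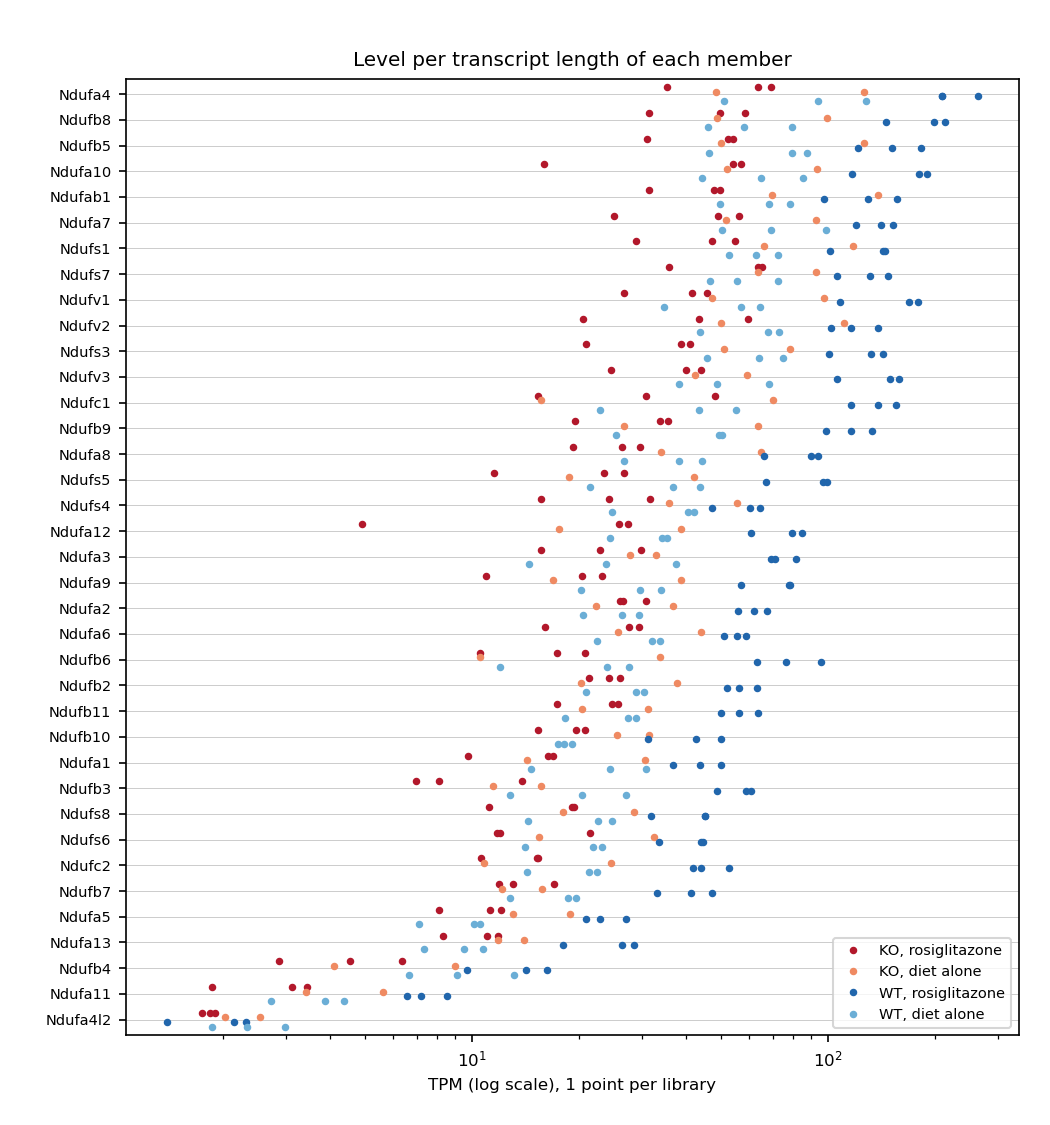
TPM of the members shown on a log axis, 1 point per library, ordered by the mean over all 11 libraries and coloured by group. For most genes the 3 WT libraries with rosiglitazone (dark blue) stand to the right of the other 8, and Ndufa4l2 is at the bottom.

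Rosiglitazone in WT tissue was accompanied by higher RNA of nearly the whole gene set. Summed over the members, WT libraries with rosiglitazone had 2168, 2973 and 2233 CPM, against 1212, 858 and 668 CPM in WT libraries on diet alone. The lowest treated WT library lay well above the highest untreated one. In CPM, 36 of 38 members did not overlap between the groups and were higher with rosiglitazone (13.4% of all tested genes did so in that direction); the exceptions were Ndufa4l2 and Ndufb4. By edgeR's quasi-likelihood test with Benjamini-Hochberg adjustment over 26960 genes, 24 members rose and none fell at an adjusted p of 0.05, against 1.55% of all tested genes called higher and 0.593% called lower. The median log2 fold change of the members was 1.43, against −0.05 for all tested genes. At an unadjusted p of 0.05, 36 members were higher (9.93% of all tested genes).

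**Figure D2:**
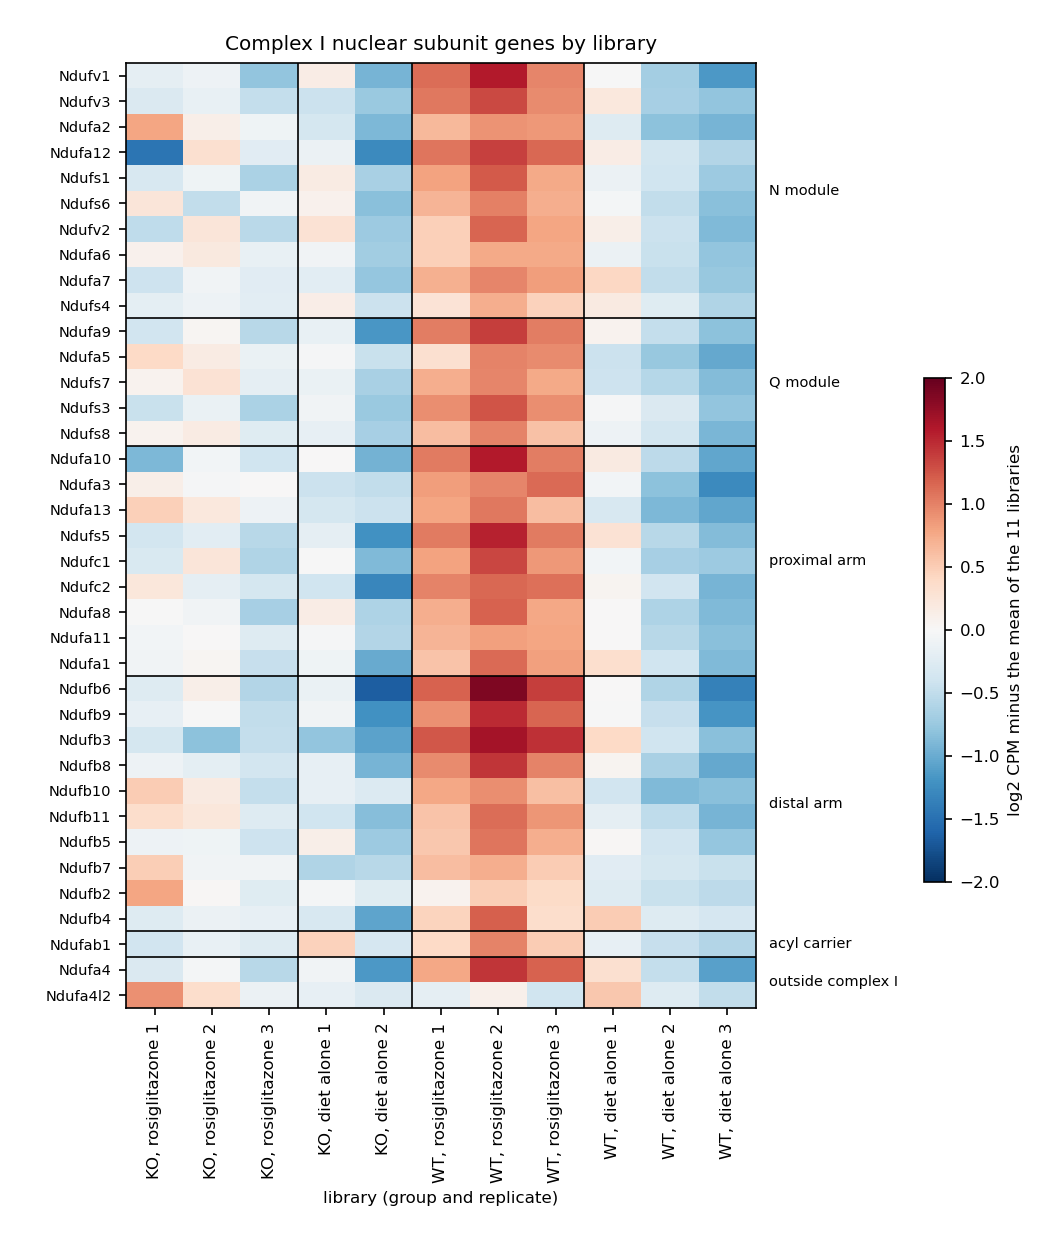
Log2 CPM of the members shown in each library minus that gene's mean over the 11 libraries, with genes grouped by place in the complex and libraries by group. The 3 WT libraries with rosiglitazone are above the mean for nearly all genes, and WT rosiglitazone replicate 2 is the highest library for most.

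The 7 core subunits include those that carry the cofactors of the hydrophilic arm, and most of the 7 rose with rosiglitazone in WT. Ndufv1, which binds FMN and takes electrons from NADH, had 179, 248 and 162 CPM in WT libraries with rosiglitazone, against 82.3, 51.5 and 37.2 CPM in WT libraries on diet alone. The groups did not overlap, with a log2 fold change of 1.78 ± 0.37 (SE; adjusted p = 0.042, edgeR). Ndufs1, the largest core subunit and a carrier of iron-sulphur clusters, had 251, 335 and 242 CPM in WT libraries with rosiglitazone, against 133, 108 and 86.5 CPM on diet alone. Every treated library lay above every untreated one, and the log2 fold change was 1.34 ± 0.27 (adjusted p = 0.04, edgeR). Ndufv2, the iron-sulphur partner of Ndufv1, had 76.9, 123 and 95.8 CPM with rosiglitazone, against 60.1, 41.0 and 29.8 CPM on diet alone. These groups did not overlap, yet the gene was not called (log2 fold change 1.18 ± 0.35, adjusted p = 0.13, edgeR).

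Around the ubiquinone site, the core genes Ndufs3, Ndufs7 and Ndufs8 and the accessory genes Ndufa5 and Ndufa9 of the Q module rose. Ndufs7, which holds the last iron-sulphur cluster before ubiquinone, had 71.3, 84.8 and 72.9 CPM with rosiglitazone, against 32.4, 29.3 and 23.7 CPM on diet alone. It had the smallest p of all members here, with no overlap and a log2 fold change of 1.42 ± 0.20 (adjusted p = 0.014, edgeR). Ndufs3, a core subunit at the base of the peripheral arm, had 78.5, 97.6 and 78.2 CPM with rosiglitazone, against 40.5, 33.7 and 23.7 CPM on diet alone (log2 fold change 1.38 ± 0.25, adjusted p = 0.029, edgeR). Ndufs8, another iron-sulphur core subunit, had 31.7, 41.1 and 31.0 CPM with rosiglitazone, against 19.3, 16.1 and 10.9 CPM on diet alone. Its fold was the smallest of these genes (log2 fold change 1.16 ± 0.24, adjusted p = 0.041, edgeR).

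Of the 10 genes of the N module 5 rose, namely Ndufv1, Ndufs1, Ndufv3, Ndufa2 and Ndufa6, and the others had log2 fold changes between 0.68 and 1.44. The lowest was Ndufs4, an accessory subunit added late in assembly and mutated in human Leigh syndrome. It had 30.2, 41.6 and 34.3 CPM in WT libraries with rosiglitazone, against 28.3, 21.2 and 16.5 CPM on diet alone. The lowest treated value barely exceeded the highest untreated one, and the gene was not called (log2 fold change 0.68 ± 0.22, adjusted p = 0.16, edgeR). Counted over its protein-coding transcripts alone, the direction of Ndufs4 turned, with a log2 fold change of −0.31.

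In the membrane arm 6 of 9 proximal and 7 of 10 distal members rose. Ndufa13, a proximal subunit also known as Grim19, had 26.9, 32.4 and 23.7 CPM in WT libraries with rosiglitazone, against 12.4, 8.30 and 7.51 CPM on diet alone (log2 fold change 1.56 ± 0.23, adjusted p = 0.019, edgeR). Ndufa3, a small proximal subunit, had 15.5, 17.1 and 18.9 CPM with rosiglitazone, against 8.37, 4.91 and 3.60 CPM on diet alone (log2 fold change 1.60 ± 0.27, adjusted p = 0.025, edgeR). All treated values of both genes lay above all untreated ones. Ndufb6, of the distal arm, had the highest log2 fold change of any member, 2.06 ± 0.43 (adjusted p = 0.044, edgeR), with 33.9, 54.6 and 39.0 CPM with rosiglitazone, against 15.0, 9.77 and 5.84 CPM on diet alone. Ndufb8, a distal subunit widely used as a protein marker of complex I, had 96.3, 135 and 99.0 CPM with rosiglitazone, against 52.2, 31.8 and 24.7 CPM on diet alone (log2 fold change 1.60 ± 0.30, adjusted p = 0.031, edgeR). The 3 distal genes not called were Ndufb2, Ndufb4 and Ndufb5, with log2 fold changes of 0.73, 0.70 and 1.13, and the 3 proximal ones were Ndufa1, Ndufa10 and Ndufs5.

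The last 3 genes were not assigned to one of these modules or arms here. Ndufab1, the mitochondrial acyl carrier protein that also serves lipoic acid and fatty acid synthesis, had 68.4, 102 and 73.2 CPM in WT libraries with rosiglitazone, against 46.1, 37.4 and 34.6 CPM on diet alone. It did not overlap between the groups but missed the threshold (log2 fold change 1.05 ± 0.23, adjusted p = 0.052, edgeR). Ndufa4, of complex IV, had 68.5, 108 and 90.6 CPM with rosiglitazone, against 50.1, 28.7 and 18.8 CPM on diet alone (log2 fold change 1.45 ± 0.38, adjusted p = 0.083, edgeR). Ndufa4l2, known as a target of hypoxia-inducible factor, had 1.56, 1.90 and 1.33 CPM with rosiglitazone, against 2.56, 1.47 and 1.25 CPM on diet alone. It was the only member below 0, its groups overlapped, and its log2 fold change was −0.14 ± 0.35 (adjusted p = 0.88, edgeR).

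The number of members called was sensitive to single libraries, while the sign of the median was not. Without WT rosiglitazone replicate 1 or 2, or without WT diet replicate 2 or 3, edgeR called 0 members. Of all tested genes, 0.108%, 0.0561%, 0.0633% and 0.0674% were called higher in these fits. At an unadjusted p of 0.05, 37, 34, 36 and 36 members were higher, where 3746, 2897, 3298 and 3020 genes passed in either direction. Without WT rosiglitazone replicate 3 it called 2 (0.212% of all tested genes). Without KO rosiglitazone replicate 1, 2 or 3 it called 7, 6 and 6 (0.592%, 0.582% and 0.504%). Without WT diet replicate 1 it called 34 (7.68%). Without KO diet replicate 1 or 2, which left 1 KO diet library, the median of the members was 1.43 in both fits. The calls over all genes moved in the same way, between 15 genes called higher without WT rosiglitazone replicate 2 and 2057 without WT diet replicate 1. The median over the 11 fits that each left out 1 library stayed between 1.22 and 1.65. DESeq2 called 33 members higher (4.64% of all tested genes) and limma-voom 37 (16.9%).

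In KO tissue the members showed no called difference with rosiglitazone. Their sum was 1087, 1212 and 896 CPM in KO libraries with rosiglitazone, against 1218 and 706 CPM in KO libraries on diet alone. The treated values lay between the untreated ones, which were themselves far apart. The median log2 fold change was 0.30, against −0.01 for all tested genes, and 30 of 38 members were above 0. EdgeR called 0 members, against 0.0148% of all tested genes in either direction. At an unadjusted p of 0.05 it found 4 higher (4.09% of all tested genes), and DESeq2 and limma-voom also called 0. In CPM, 8 members were higher without overlap, against 10.5% of all tested genes. On log2(TPM + 1) the median of the members was −0.53, where the median of all tested genes was −0.60, so that scale moved all genes together and the members lay near the rest on it. On the CPM scale the median was −0.072 without KO diet replicate 2 and 0.69 without KO diet replicate 1, and in both fits the lone library left is assumed to vary like the other groups.

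The smallest p values in this comparison belonged to 2 distal subunits and an N-module subunit. Ndufb7, on the intermembrane side of the distal arm, had 22.1, 15.0 and 14.9 CPM in KO libraries with rosiglitazone, against 10.3 and 10.7 CPM in KO libraries on diet alone (log2 fold change 0.72 ± 0.20, adjusted p = 0.34, edgeR). Ndufa2, a small N-module subunit with a thioredoxin-like fold, had 27.3, 17.2 and 14.9 CPM with rosiglitazone, against 12.4 and 8.47 CPM on diet alone (log2 fold change 0.93 ± 0.31, adjusted p = 0.44, edgeR). Ndufb11, a distal-arm subunit encoded on the X chromosome, had 31.5, 29.1 and 20.9 CPM with rosiglitazone, against 18.8 and 13.7 CPM on diet alone (log2 fold change 0.74 ± 0.28, adjusted p = 0.51, edgeR). For these 3 genes every treated KO library exceeded both untreated ones. Ndufab1 had the lowest log2 fold change, −0.37 ± 0.26 (adjusted p = 0.77, edgeR), with 39.5, 46.5 and 43.2 CPM with rosiglitazone, against 70.8 and 40.9 CPM on diet alone, and KO diet replicate 1 alone was high.

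**Figure D3:**
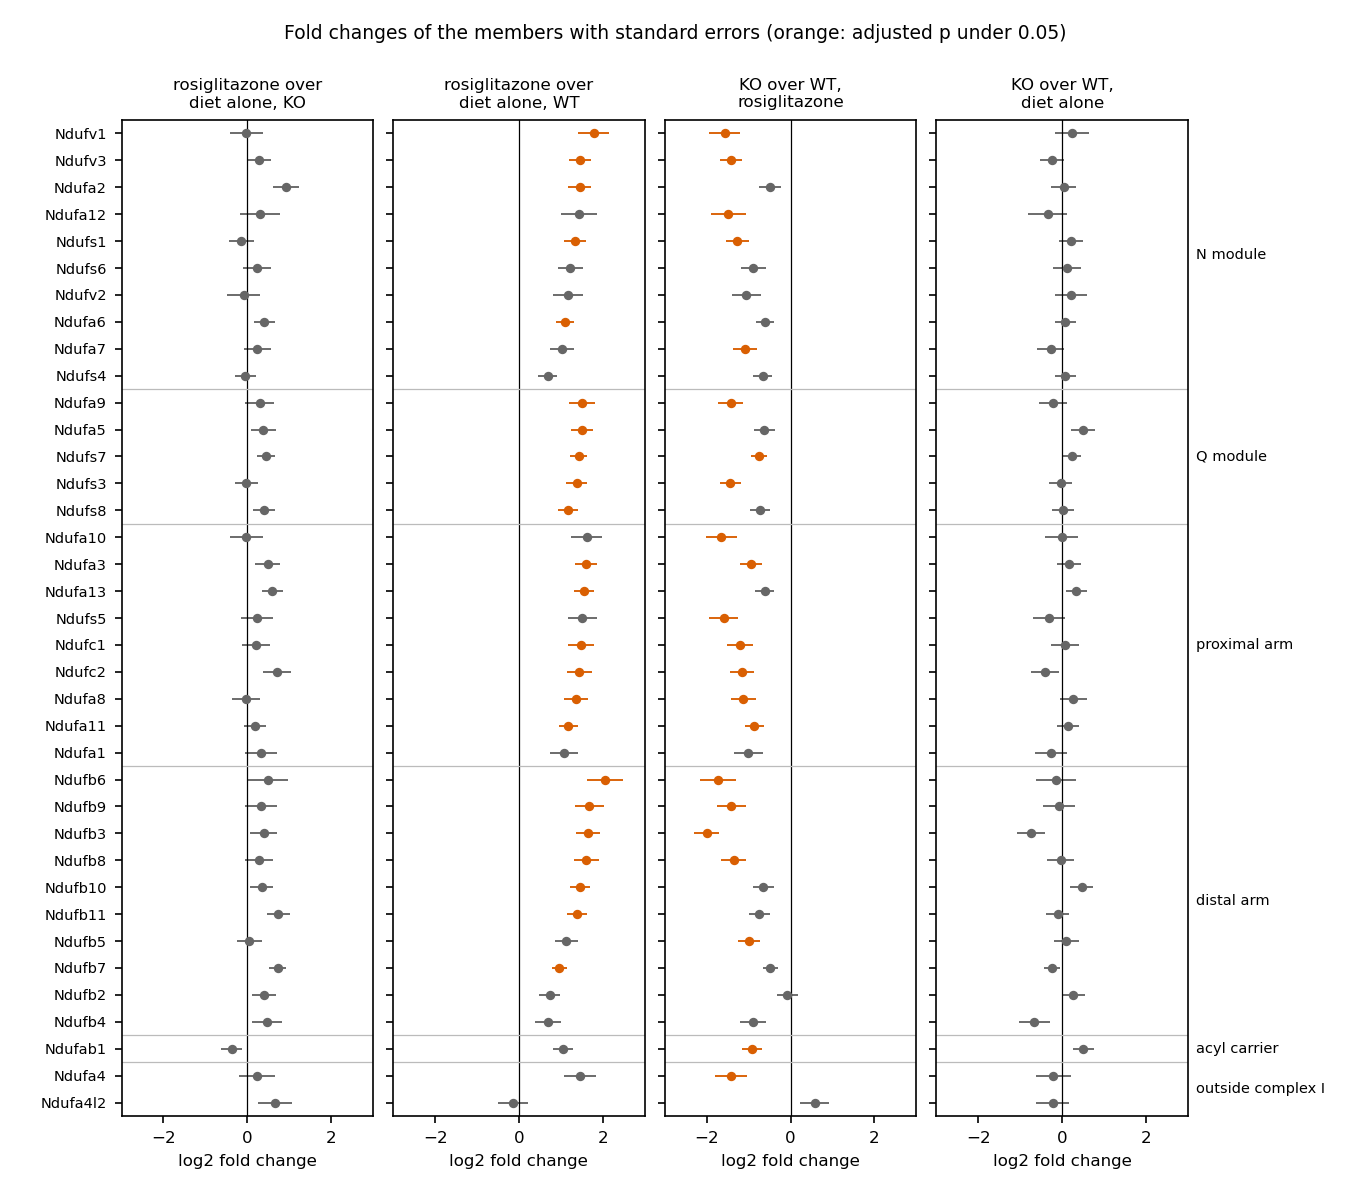
Log2 fold change of the members shown (points) with standard errors (bars) in 4 comparisons, from the edgeR fit; orange marks an adjusted p under 0.05. The points lie to the right of 0 for rosiglitazone in WT and to the left for KO over WT with rosiglitazone, with Ndufa4l2 the exception in both. They lie around 0 for KO over WT on diet alone and mostly to the right of 0 for rosiglitazone in KO (0 called in either).

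With rosiglitazone, KO tissue had less RNA of most members than WT tissue. The sums were 1087, 1212 and 896 CPM in KO libraries, against 2168, 2973 and 2233 CPM in WT libraries, with no overlap. Reads on ribosomal and other abundant small noncoding RNA genes (the Rn7s family and Rn7sk among them), a sign of library quality, were 9.61%, 5.01% and 5.57% in these KO libraries, against 2.87%, 3.10% and 3.25% in these WT libraries, and 2.48% to 3.71% in the other 5. Their part in the result was not tested. By edgeR 23 members fell and none rose, against 9.5% of all tested genes called lower and 5.47% called higher. At an unadjusted p of 0.05, 35 members were lower (17.7% of all tested genes). The median log2 fold change was −1.03, against 0.05 for all tested genes. In CPM, 34 members were lower without overlap (24.7% of all tested genes); the exceptions were Ndufa2, Ndufa4l2, Ndufa5 and Ndufb2. This comparison shares its WT libraries with the rosiglitazone comparison in WT, so the 2 sets of calls are not independent of each other.

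By place in the complex, the genes that fell included 5 of 10 N-module, 7 of 9 proximal and 5 of 10 distal members, with Ndufab1, Ndufa4 and, of the Q module, Ndufa9, Ndufs3 and Ndufs7. Ndufb3, a small distal subunit, had the smallest p and the lowest fold: 10.3, 7.46 and 9.52 CPM in KO libraries with rosiglitazone, against 31.3, 41.9 and 36.3 CPM in WT libraries with rosiglitazone. No KO value reached any WT value (log2 fold change −2.001 ± 0.30, adjusted p = 0.0034, edgeR). Ndufs3 had 30.1, 37.3 and 26.4 CPM in KO libraries, against 78.5, 97.6 and 78.2 CPM in WT libraries (log2 fold change −1.44 ± 0.25, adjusted p = 0.0063, edgeR). Ndufv3, an accessory subunit of the N module, had 27.0, 29.8 and 23.8 CPM in KO libraries, against 68.8, 82.7 and 63.6 CPM in WT libraries (log2 fold change −1.42 ± 0.26, adjusted p = 0.0076, edgeR). These 3 genes were the only members called in each of the 11 fits that left out 1 library.

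The core genes Ndufv1, Ndufs1 and Ndufs7 also fell. Ndufv1 had 73.0, 77.3 and 47.9 CPM in KO libraries with rosiglitazone, against 179, 248 and 162 CPM in WT libraries with rosiglitazone (log2 fold change −1.57 ± 0.37, adjusted p = 0.02, edgeR). Ndufs1 had 116, 135 and 92.1 CPM in KO libraries, against 251, 335 and 242 CPM in WT libraries (log2 fold change −1.27 ± 0.27, adjusted p = 0.014, edgeR). The KO values of both genes lay within or near the range of WT libraries on diet alone. The difference was smaller for Ndufs7, with 45.7, 52.9 and 38.3 CPM in KO libraries, against 71.3, 84.8 and 72.9 CPM in WT libraries (log2 fold change −0.74 ± 0.19, adjusted p = 0.03, edgeR). The core genes Ndufv2 and Ndufs8 were not called, with log2 fold changes of −1.05 ± 0.35 (adjusted p = 0.072) and −0.73 ± 0.24 (adjusted p = 0.063, edgeR).

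Beyond the core, Ndufb8 had 46.8, 43.5 and 38.8 CPM in KO libraries with rosiglitazone, against 96.3, 135 and 99.0 CPM in WT libraries with rosiglitazone (log2 fold change −1.35 ± 0.29, adjusted p = 0.015, edgeR). Ndufab1 had 39.5, 46.5 and 43.2 CPM in KO libraries, against 68.4, 102 and 73.2 CPM in WT libraries (log2 fold change −0.92 ± 0.23, adjusted p = 0.028, edgeR). Both genes separated the genotypes completely. Ndufa4 had 32.9, 38.9 and 27.2 CPM in KO libraries, against 68.5, 108 and 90.6 CPM in WT libraries (log2 fold change −1.43 ± 0.38, adjusted p = 0.033, edgeR). Ndufs4 was not called, with 21.9, 23.3 and 21.7 CPM in KO libraries, against 30.2, 41.6 and 34.3 CPM in WT libraries (log2 fold change −0.67 ± 0.22, adjusted p = 0.074, edgeR). Ndufa4l2 was the only member with a positive log2 fold change, 0.57 ± 0.35 (adjusted p = 0.29, edgeR), at 3.30, 2.26 and 1.62 CPM in KO libraries, against 1.56, 1.90 and 1.33 CPM in WT libraries. On log2(TPM + 1) its value was −0.046, where the median of all tested genes was −0.30.

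Leaving out single libraries moved the count of lower members in this comparison too. It was 4, 11 and 3 without KO rosiglitazone replicate 1, 2 and 3 (3.61%, 4.93% and 3.26% of all tested genes). It was 13, 3 and 10 without WT rosiglitazone replicate 1, 2 and 3 (5.15%, 3.62% and 5.47%), against 9.5% in the main fit. The median of the members stayed between −1.14 and −0.91. Over all tested genes, calls lower ran from 873 without KO rosiglitazone replicate 3 to 3745 without WT diet replicate 1. Without WT diet replicate 1 the count was 32 (14% of all tested genes). Without KO diet replicate 1 or 2, which left 1 KO diet library, the median of the members was −1.03 in both fits. DESeq2 called 29 members lower (13.1% of all tested genes) and limma-voom 35 (19.2%).

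On diet alone no member was called between the genotypes. The members summed to 1218 and 706 CPM in KO libraries, against 1212, 858 and 668 CPM in WT libraries, with overlap. EdgeR called 0 members, against 0.137% of all tested genes in either direction, and 1 was lower at an unadjusted p of 0.05 (5.92% of all tested genes). DESeq2 and limma-voom also called 0, and the median log2 fold change was 0.03, against 0.02 for all tested genes. That median was −0.40 without KO diet replicate 1 and 0.34 without KO diet replicate 2, so its direction rested on single libraries. Without overlap in CPM, Ndufb10 and Ndufb2 were higher in KO libraries (10.5% of all tested genes) and Ndufb7 was lower (10.3%).

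The member with the smallest p on diet alone was Ndufb3, at 7.63 and 6.27 CPM in KO libraries, against 17.5, 10.0 and 7.41 CPM in WT libraries (log2 fold change −0.75 ± 0.33, adjusted p = 0.47, edgeR). One KO value lay within the WT range. Ndufab1 had 70.8 and 40.9 CPM in KO libraries, against 46.1, 37.4 and 34.6 CPM in WT libraries (log2 fold change 0.50 ± 0.26, adjusted p = 0.55, edgeR). Ndufb4, a distal-arm subunit, had 3.35 and 2.00 CPM in KO libraries, against 5.90, 3.49 and 3.29 CPM in WT libraries (log2 fold change −0.67 ± 0.36, adjusted p = 0.59, edgeR). Both genes overlapped between the genotypes, and for Ndufab1 the high value came from KO diet replicate 1 alone.

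Whether rosiglitazone acted differently in the genotypes was asked by the interaction, the fold change in KO minus that in WT. Its median over the members was −1.12, against 0.00 for all tested genes, and 37 of 38 members were below 0. EdgeR called 0 of them, against 0.104% of all tested genes in either direction, while 24 were lower at an unadjusted p of 0.05 (5.64% of all tested genes). Limma-voom called 0 and DESeq2 called 3, namely Ndufab1, Ndufs1 and Ndufs3, so the difference in response was not shown for single members by the main test. Ndufab1 had the smallest p, with an interaction of −1.42 ± 0.35 (adjusted p = 0.19, edgeR). Ndufs3 and Ndufs1 followed, with −1.40 ± 0.36 (adjusted p = 0.22) and −1.48 ± 0.40 (adjusted p = 0.24, edgeR). Ndufv1 was the lowest at −1.81 ± 0.53 (adjusted p = 0.29) and Ndufa4l2 the highest at 0.80 ± 0.53 (adjusted p = 0.63, edgeR).

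The rest of the oxidative phosphorylation system was measured beside complex I. Of 23 nuclear subunits of complexes II to IV, 15 rose with rosiglitazone in WT (median log2 fold change 1.65) and 13 fell in KO against WT with rosiglitazone (median −1.19). Of 15 nuclear ATP synthase subunits, 6 rose in the first comparison (median 1.17) and 9 fell in the second (median −0.94). The difference between these lists and the complex I members was not tested.

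The 7 complex I subunits of the mitochondrial genome, the partners of the nuclear ones in the membrane arm, all had positive log2 fold changes with rosiglitazone in WT, but only mt-Nd4l was called. It had 255, 331 and 243 CPM in WT libraries with rosiglitazone, against 124, 85.5 and 69.9 CPM on diet alone (log2 fold change 1.57 ± 0.30, adjusted p = 0.033, edgeR). In KO against WT with rosiglitazone, mt-Nd4, mt-Nd4l and mt-Nd5 fell, with log2 fold changes of −1.56 ± 0.45, −1.33 ± 0.29 and −1.39 ± 0.39 (adjusted p = 0.043, 0.016 and 0.041, edgeR). These transcripts lie close together and overlap in part on a small genome, so their reads are not fully separable.

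Assembly factors, which build the complex and are not part of it, were called less widely, a difference that was not tested. Of 17, only Ecsit, Foxred1 and Tmem186 rose with rosiglitazone in WT (median of the list 0.71). Foxred1, needed for stable complex I in human cells, had 58.7, 71.0 and 53.9 CPM in WT libraries with rosiglitazone, against 35.9, 26.8 and 23.8 CPM on diet alone (log2 fold change 1.09 ± 0.18, adjusted p = 0.025, edgeR). Ecsit and Tmem186, of the assembly complex of the membrane arm, had log2 fold changes of 1.000 ± 0.20 (adjusted p = 0.036) and 0.81 ± 0.18 (adjusted p = 0.049, edgeR). In KO against WT with rosiglitazone 8 of 17 fell (median −0.74), among them Tmem70 at −1.37 ± 0.24 (adjusted p = 0.0064, edgeR). At the other end Acad9, another assembly factor, had a log2 fold change with rosiglitazone in WT of 0.07 ± 0.15 (adjusted p = 0.84, edgeR).

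Among 7 regulators of respiratory genes, Esrra, which encodes an estrogen-related receptor, rose with rosiglitazone in WT. It had 49.0, 50.5 and 42.9 CPM in WT libraries with rosiglitazone, against 21.6, 22.1 and 21.3 CPM on diet alone (log2 fold change 1.13 ± 0.15, adjusted p = 0.014, edgeR). In KO libraries it had 45.0, 47.8 and 35.7 CPM with rosiglitazone and 40.2 and 32.5 CPM on diet alone, all above the WT diet values. The coactivator Ppargc1a had 24.7, 36.7 and 24.5 CPM in WT libraries with rosiglitazone, against 12.1, 11.2 and 8.34 CPM on diet alone, and its relative Ppargc1b had 21.8, 24.2 and 16.1 CPM, against 10.6, 10.8 and 8.29 CPM. Neither was called (adjusted p = 0.15 and 0.063, edgeR), nor were Gabpa, Nrf1, Tfam and Yy1.

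Reads of the members could also be divided by annotated transcript class, 86 protein-coding and 48 retained-intron transcripts among others. Protein-coding transcripts summed to 1758, 2458 and 1829 CPM in WT libraries with rosiglitazone, against 962, 641 and 483 CPM on diet alone, a ratio of means of 2.90. Retained-intron transcripts summed to 165, 191 and 158 CPM in WT libraries with rosiglitazone, against 114, 117 and 111 CPM on diet alone, a ratio of 1.5. Neither class overlapped between the groups, and the ratio was larger in the protein-coding class. Of 13 genes with at least 500 reads in both classes, 12 had the larger ratio in the protein-coding class, with medians of 2.85 for protein-coding and 1.46 for retained-intron transcripts. The exception was Ndufc1, where the retained-intron ratio was 4.71 and the protein-coding ratio 1.73.

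Between genotypes with rosiglitazone, protein-coding transcripts summed to 821, 947 and 682 CPM in KO libraries, against 1758, 2458 and 1829 CPM in WT libraries (ratio 0.405). Retained-intron transcripts summed to 152, 142 and 125 CPM in KO libraries, against 165, 191 and 158 CPM in WT libraries (ratio 0.816). On diet alone the retained-intron sums were 144 and 148 CPM in KO libraries, against 114, 117 and 111 CPM in WT libraries. The retained-intron class thus took 14.0, 11.7 and 14.0% of member reads in KO libraries with rosiglitazone and 11.8 and 21.02% in KO libraries on diet alone. In WT libraries it took 7.61, 6.42 and 7.08% with rosiglitazone and 9.43, 13.7 and 16.6% on diet alone. The classes come from Salmon's division of reads among overlapping transcripts, no test was made on them, and unspliced RNA cannot be told apart from a retained intron.

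**Figure D4:**
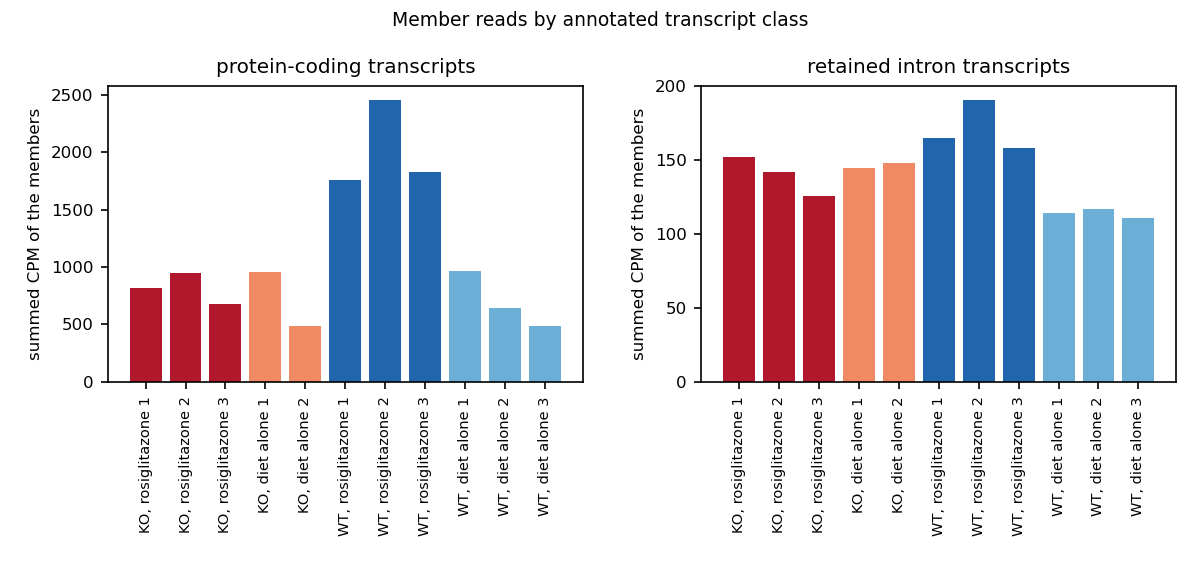
Summed CPM of the members' protein-coding transcripts (left) and retained-intron transcripts (right), 1 bar per library, coloured by group. The 3 WT libraries with rosiglitazone stand out in the protein-coding class (1758 to 2458 CPM), while retained-intron sums span only 111 to 191 CPM over all 11 libraries.

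Markers of the cells in the depot moved with several of these results. The 15 mature adipocyte markers, all with reads in every group, summed to 7439.5, 8822 and 8799 CPM in KO libraries with rosiglitazone and 11856 and 3640.4 CPM in KO libraries on diet alone. They summed to 44304, 50734 and 46125 CPM in WT libraries with rosiglitazone and 49526, 19534 and 16486 CPM in WT libraries on diet alone. Every KO library was below every WT library, and in bulk tissue fewer adipocytes and less RNA per adipocyte cannot be told apart. WT diet replicate 1, at 49526 CPM of these markers, had 1212 CPM of complex I members.

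With the adipocyte marker sum as a covariate, rosiglitazone in WT gave 30 members called higher (median log2 fold change 1.02), against 3.05% of all tested genes. KO against WT with rosiglitazone then gave 0 called (median 0.06, 0 at an unadjusted p of 0.05). Of all tested genes, 5.12% were called higher and 1.68% lower there, and 5861 passed an unadjusted p of 0.05. KO against WT on diet alone gave 15 called higher (median 0.89), against 7.95% of all tested genes. The covariate separates the genotypes completely, so genotype and adipocyte content cannot be told apart in this fit. With rosiglitazone the sum of the 10 macrophage markers ran the other way, at 2616, 2339.9 and 2895 CPM in KO libraries and 614, 645 and 768 CPM in WT libraries. Of these markers, 9 had log2 fold changes above 0 in KO against WT with rosiglitazone and 1 was below 0. On diet alone the macrophage markers summed to 3316 and 1108 CPM in KO libraries and 1212, 854 and 1186 CPM in WT libraries, with overlap. KO diet replicate 1 was the highest KO library in both these markers and the members. The part of macrophages in the result was not tested. The 10 B-cell markers summed to 799, 899.8 and 950.3 CPM in KO libraries with rosiglitazone and 226 and 1332 CPM in KO libraries on diet alone. They summed to 520.1, 209.8 and 388 CPM in WT libraries with rosiglitazone and 459, 1277 and 1089 CPM in WT libraries on diet alone. The 10 T-cell and NK-cell markers summed to 287, 257 and 279.7 CPM in KO libraries with rosiglitazone and 20.6 and 464 CPM in KO libraries on diet alone. They summed to 88.2, 14.9 and 108 CPM in WT libraries with rosiglitazone and 18.2, 282 and 221 CPM in WT libraries on diet alone. On diet alone the library of each genotype with the fewest lymphocyte reads, replicate 1, had the highest member sum, and the part of these cells was not tested.

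Markers of skeletal muscle, a tissue rich in complex I, were high in some libraries. The 15 markers, all with reads in every group, summed to 168, 40069 and 209 CPM in KO libraries with rosiglitazone and 346 and 183 CPM in KO libraries on diet alone. They summed to 237, 10156 and 18906 CPM in WT libraries with rosiglitazone and 656, 15271 and 1029 CPM in WT libraries on diet alone. Among WT libraries with rosiglitazone, the member sum was 2973 and 2233 CPM in the muscle-rich replicates 2 and 3, against 2168 CPM in replicate 1. Among KO libraries with rosiglitazone it was 1212 CPM in the muscle-rich replicate 2, against 1087 and 896 CPM in replicates 1 and 3. On diet alone the muscle-rich WT replicate 2 had 858 CPM, between replicate 1 (1212 CPM) and replicate 3 (668 CPM). Without the 4 libraries over 0.5% muscle markers, 1 treated WT library was left, assumed to vary like the other groups. EdgeR then called 0 of 28243 genes in either comparison, members included. The median of the members was 1.14 for rosiglitazone in WT, with 14 higher at an unadjusted p of 0.05, where 958 genes passed in either direction. It was −0.84 for KO against WT with rosiglitazone, with 11 lower, where 2538 genes passed. With the muscle sum as a covariate, 2 members (Ndufs7 and Ndufa13) were called for rosiglitazone in WT, where 110 genes were called higher, against 418 without it. The median of the members was 1.38, with 36 higher at an unadjusted p of 0.05. In KO against WT with rosiglitazone 13 were lower (6.91% of all tested genes), with a median of −0.97 and 34 lower at an unadjusted p of 0.05.

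Brown and beige adipocyte markers, 8 of 8 with reads in every group, summed to 132, 352 and 129 CPM in KO libraries with rosiglitazone and 417 and 81.0 CPM in KO libraries on diet alone. They summed to 356, 605 and 272 CPM in WT libraries with rosiglitazone, against 47.5, 80.3 and 26.0 CPM in WT libraries on diet alone. In WT they separated the treatments as the members did, and their part in the result was not tested. KO diet replicate 1 was among the highest in these markers (417 CPM) and had 1218 CPM of members, close to WT diet replicate 1.

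**Figure D5:**
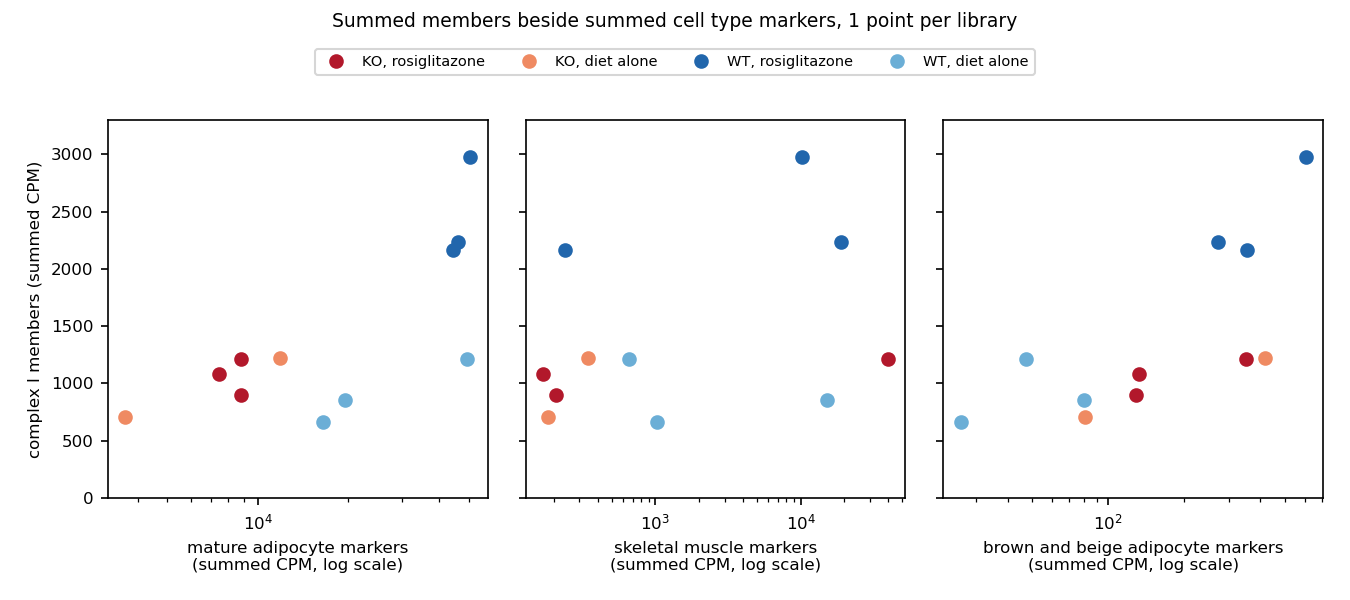
Summed CPM of the 38 members (vertical) beside summed CPM of mature adipocyte, skeletal muscle and brown or beige adipocyte markers (horizontal, log scale), 1 point per library, coloured by group. WT libraries on diet alone reach the adipocyte level of treated WT libraries in 1 case (49526 CPM) with 1212 CPM of members, and libraries rich in muscle markers occur at both low and high member sums.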

How the data were processed

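Tissue RNA (Trizol) went into Nextera XT libraries, per the labels' protocols, where no strand is named. The submitters' processing notes list Salmon, edgeR, mm10 and GRCm38, with no version of the tools and no annotation release. For each library the authors deposited a Salmon table of transcripts, each with its estimated count and TPM, per the file headers. The 132288 transcripts were joined to GENCODE M21 (GRCm38; 99.7% matched); the 396 others (0.0985% to 0.144% of reads) were not used.

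Gene-level estimated counts were rounded to whole numbers, and CPM values use TMM scaling. The test was edgeR 4.0.16's quasi-likelihood test, 1 model with 4 group means over the 11 libraries, the default expression filter (26960 genes) and an adjusted p threshold of 0.05; standard errors come from that model. It was first run on simulated counts that had the same spread for every gene and no differences in tissue make-up. That run therefore does not cover such differences between libraries. Members, lists and alternatives were chosen with earlier results of these data known, so no list's direction is independent support. Individual values are given for members chosen by role (core subunits, Ndufs4, Ndufab1, Ndufb8, Ndufa4 and Ndufa4l2), for the 3 with the smallest p in each comparison and for those with the highest and lowest fold change; 1 member is counted but not reported here. Alternatives were RLE scaling, DESeq2 1.42.0, limma 3.58.1 (voom, and limma-trend on log2(TPM + 1), which understates fold changes of low genes), no filter, fitting 2 groups only, a replicate block, WT groups taken from titles, marker covariates, omission of muscle-rich or single libraries, protein-coding genes and, added after seeing the data, protein-coding transcripts. Salmon divides reads shared by paralogs, pseudogenes and overlapping genes by its model, and opposite strands cannot be told apart (Ndufb2 with Braf, Ndufb11 with Rbm10 and Ndufa11 with Vmac, for example). RefSeq promoters (GRCm38.p6) were searched for exact strings in Python 3.11.15.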

Additional observations from a re-analysis of the deposited data

How the results depend on the processing

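The counts of members called changed by over 1.5 times, or turned direction, under these settings. For rosiglitazone in WT (24 higher, 1.55% of all tested genes) limma-voom called 37 (16.9%) and limma-trend on log2(TPM + 1) 0 (0.108%). The fit of those 2 groups alone called 10 (median 1.38), where 214 genes (0.869%) were higher. The muscle covariate gave 2 (median 1.38), where 110 genes (0.408%) were higher, against 418 in the main fit. The fit without the muscle-rich libraries, which left 1 treated WT library, gave a median of 1.14. With the treatment read from the titles, 24 members were lower (1.55% of all tested genes). For KO against WT with rosiglitazone (23 lower, 9.5% of all tested genes) limma-voom called 35 (19.2%), limma-trend 37 (14.3%) and the titles 0 (1.32%). The median with limma-trend was −1.66 for the members and −0.30 for all tested genes. The muscle covariate gave 13 (6.91%) and the adipocyte covariate 0 (1.68%). Without the muscle-rich libraries the median was −0.84. For KO against WT on diet (0) the titles gave 27 lower (6.67% of all tested genes) and the adipocyte covariate 15 higher (7.95%). For the interaction (0) DESeq2 called 3 lower (0.712% of all tested genes). The titles gave 5 higher (0.423%) and the adipocyte covariate 8 lower (1.33%). Leaving out 1 library gave 0 to 34, 3 to 32, 0 to 0 and 0 to 2 for these 4 comparisons, and 0 to 0 for rosiglitazone in KO. Over all tested genes, calls higher ran from 0.0561% to 7.68% for rosiglitazone in WT. Calls lower ran from 3.26% to 14% for KO against WT with rosiglitazone. The causes were not tested.

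With the titles, median log2 fold changes were −1.43 for rosiglitazone in WT and 0.25 for KO against WT with rosiglitazone. They were −1.35 for KO against WT on diet and 1.68 for the interaction. The adipocyte covariate gave 0.063 for KO against WT with rosiglitazone. In that comparison 31 of 38 members were above 0 with the titles and 25 with the adipocyte covariate. The values below leave out some named members, Ndufs3 and Ndufb3 among them for that comparison. With the titles, rosiglitazone in WT was −1.78 for Ndufv1, −1.18 for Ndufv2, −1.34 for Ndufs1, −1.38 for Ndufs3, −1.42 for Ndufs7, −1.16 for Ndufs8, −0.68 for Ndufs4, −1.05 for Ndufab1, −1.60 for Ndufb8, −1.45 for Ndufa4, 0.14 for Ndufa4l2, −1.56 for Ndufa13, −1.60 for Ndufa3 and −2.06 for Ndufb6. KO against WT with rosiglitazone was then 0.21 for Ndufv1, 0.12 for Ndufv2, 0.065 for Ndufs1, 0.68 for Ndufs7, 0.43 for Ndufs8, 0.018 for Ndufs4, 0.13 for Ndufab1, 0.25 for Ndufb8, 0.019 for Ndufa4 and 0.047 for Ndufv3. Ndufab1 on diet was −0.54, and the interaction was 0.67 for Ndufab1, 1.35 for Ndufs3, 1.19 for Ndufs1 and 1.76 for Ndufv1. The adipocyte covariate gave KO against WT with rosiglitazone of 0.020 for Ndufv1, 0.47 for Ndufv2, 0.14 for Ndufs8, 0.31 for Ndufs4, 0.044 for Ndufab1 and 0.36 for Ndufa4, and on diet 0.19 for Ndufb3 and 0.35 for Ndufb4. Protein-coding transcripts alone gave Ndufs4 −0.31 for rosiglitazone in WT and 0.32 for KO against WT with rosiglitazone, and Ndufa4l2 0.30 for rosiglitazone in WT, where limma-voom gave 0.10 and omission of single libraries gave −0.33 (without WT diet replicate 3) to 0.24 (without WT diet replicate 1). On log2(TPM + 1), where the median of all tested genes was −0.60 for rosiglitazone in KO and −0.30 for KO against WT with rosiglitazone, rosiglitazone in KO was −0.044 for Ndufa2 and −0.18 for Ndufb11, and Ndufa4l2 was −0.046 for KO against WT with rosiglitazone and −0.0088 for the interaction. For rosiglitazone in KO, Ndufab1 ran between −0.72 without KO diet replicate 2 and 0.077 without KO diet replicate 1.

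With the replicate block the counts were 22 higher for rosiglitazone in WT (1.18% of all tested genes) and 22 lower for KO against WT with rosiglitazone (8.5%). They were 0 for the other 3 comparisons, where at most 0.00371% of all tested genes were called in either direction. The median of the members for rosiglitazone in KO was 0.44 with the block, against 0.30 without it. Same-numbered libraries did not deviate together throughout (correlations of −0.419 to 0.608, 6 of 15 over 0.1), and the numbers were not taken to pair samples. The highest values for same-numbered libraries were between KO and WT on diet alone, 0.608 for replicate 1 and 0.402 for replicate 2. The deviations of the 2 KO diet libraries mirror each other, so these values are not separate evidence. Differently numbered libraries reached 0.419 (KO diet replicate 1 with WT rosiglitazone replicate 2).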
